A study of Mus musculus with 21 samples.

Results

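The RNA of 38 genes of DNA replication and S phase was followed through 21 libraries of sorted mouse blood stem and progenitor cells. The genes were named in a list of symbols, by a rule that used no measured value. Earlier results of these data were known when the list was chosen. All 38 were found among 28987 gene identifiers (0.131%). By role they were 9 genes in a licensing block (Mcm2 to Mcm7, Cdc6, Cdt1 and Mcm10) and 3 origin-firing genes (Gins1, Gins2 and Cdc45). Mcm10 was kept in the licensing block, although it helps to start the helicase rather than to load it. Another 9 were polymerase, clamp and fork genes (Pcna, Rfc2, Rfc4, Dscc1, Pola1, Prim1, Pold3, Fen1 and Rpa2). A further 4 served nucleotide supply and uracil removal (Rrm1, Rrm2, Tyms and Ung), 4 chromatin and histone RNA (Slbp, Chaf1b, Uhrf1 and Hells), 6 checkpoint and repair (Clspn, Tipin, Blm, Exo1, Usp1 and Dtl) and 3 S phase entry (Ccne1, Ccne2 and E2f8).

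Long-term haematopoietic stem cells (LT-HSC, 15 libraries) and multipotent progenitors (MPP, 6 libraries, a sort of MPP3 and MPP4) came from the bone marrow of primary mice, with pooled animals behind the libraries, so p-values measure the spread between such samples. In batch 1, floxed controls (Rxrab fl/fl, without Cre) and knockouts (Cre driven by the pan-blood Vav1 promoter on Rxrab fl/fl) each gave 3 LT-HSC and 3 MPP libraries. In batch 2, all LT-HSC, 3 libraries came from Vav1-Cre controls with wild-type receptor alleles, 3 were labelled Vav1-Cre Rxrab fl/fl, and 3 were labelled with that genotype and 1 floxed Myc-family allele, named Mycl in one label and Myc in the other and called the Myc allele here. Rxra and Rxrb encode retinoid X receptors, and the study asked what their loss does to stem cell fitness and quiescence. Batch 1 knockouts thus differed from their controls by Cre as well as by the deletion. The sample titles and library codes name no batch or sequencing run. Batch 1 and batch 2 each match an unbroken run of closing numbers in the library codes, and what the runs stand for is not stated. Floxed and Cre controls were never in the same batch, so control genotype and batch cannot be told apart. Neither age nor sex was given in the labels.

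Before S phase, ORC, Cdc6 and Cdt1 load the hexamer of Mcm2 to Mcm7 onto origins, and Cdc45 with the GINS complex turns the loaded hexamer into the active helicase. Polymerase alpha with primase starts each strand, replication factor C loads the sliding clamp PCNA, and ribonucleotide reductase (Rrm1 and Rrm2) and thymidylate synthase (Tyms) supply nucleotides. Most of these genes are targets of E2F factors and are transcribed from late G1 into S phase. LT-HSC are known to be largely quiescent and MPP to cycle more often.

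Values are deposited TPM, a relative transcript abundance that is scaled by transcript length, and the number of reads behind them is unknown. Library sums of the table ran from 691094 to 918942 TPM. The single identifier ENSMUSG00000089855 took 10.55% to 51.84% of the scale, most in LT-HSC floxed control 2, and mitochondrially encoded transcripts took 1.95% to 10.64%. Counts of members called are therefore given on deposited TPM and on rescaled TPM, for which each library was divided by its median ratio to the average library over the tested genes. LT-HSC markers summed to 383 to 1087 TPM in LT-HSC and 186 to 236 TPM in MPP, and MPP markers to 30.86 to 135.77 and 1095 to 1969 TPM. All 6 MPP markers were higher in every MPP library than in every batch 1 LT-HSC library. A junction that skips an Rxra exon had a PSI (share of spliced reads) of 0.9375 in knockout LT-HSC 1 and of 1 and 0.5 in knockout MPP 1 and 3, while knockout LT-HSC 2 and 3 and knockout MPP 2 had no value, so this check covers 3 of 6 batch 1 knockout libraries. Controls were at 0 except for 0.1 in floxed control LT-HSC 2. In batch 2 it lay between 0 and 0.0127 in the libraries labelled knockout, which goes against that label for Rxra. In Myc allele 1, 2 and 3 it lay at 0.6471, 0 and 1. Rxrb TPM ran from 10.64 to 12.83 in those labelled knockout and from 6.40 to 8.88 with the Myc allele, below 14.51 to 16.03 in Cre controls. In batch 1, Rxrb lay lower in knockout than in control MPP (9.55 to 13.56, 15.83 to 18.82) and overlapped in LT-HSC. Rxra TPM overlapped between libraries labelled knockout and Cre controls. These levels were not tested. The batch 2 libraries are therefore named by their labels, and their differences are differences between labels.

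In floxed controls, genes of DNA replication were more abundant in progenitors than in stem cells. Of 38 genes, 22 were higher in MPP and 0 were lower on deposited TPM, where 15.5% of all genes tested were higher and 5.62% lower (limma, Benjamini-Hochberg adjusted p under 0.05 over 14839 genes). After rescaling, 14 were higher and 1 was lower, against 11.2% and 12.5% of all genes. The median log2 difference over the 38 genes was 0.73 on deposited TPM, beside 0.26 over all genes, and 0.45 beside 0.01 after rescaling. All 14 of the rescaled calls were also called on deposited TPM: Mcm10, Gins2, Rfc2, Dscc1, Pola1, Prim1, Pold3, Tyms, Ung, Uhrf1, Hells, Usp1, Dtl and E2f8. By role, on deposited TPM, 4 of 9 genes in the licensing block and 3 of 3 firing genes were higher. So were 7 of 9 polymerase and clamp genes, 2 of 4 nucleotide genes and 2 of 4 chromatin genes. For checkpoint genes the count was 3 of 6 and for entry genes 1 of 3. After rescaling, 1 of 9 in the licensing block, 1 of 3 firing genes (Gins2) and 5 of 9 polymerase and clamp genes were higher. The rest were 2 of 4 nucleotide, 2 of 4 chromatin, 2 of 6 checkpoint and 1 of 3 entry genes. The only call in the licensing block was then Mcm10, which helps to start the helicase. In a bulk sort, a larger share of cells in S phase and more RNA per cell cannot be told apart.

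**Figure D1:**
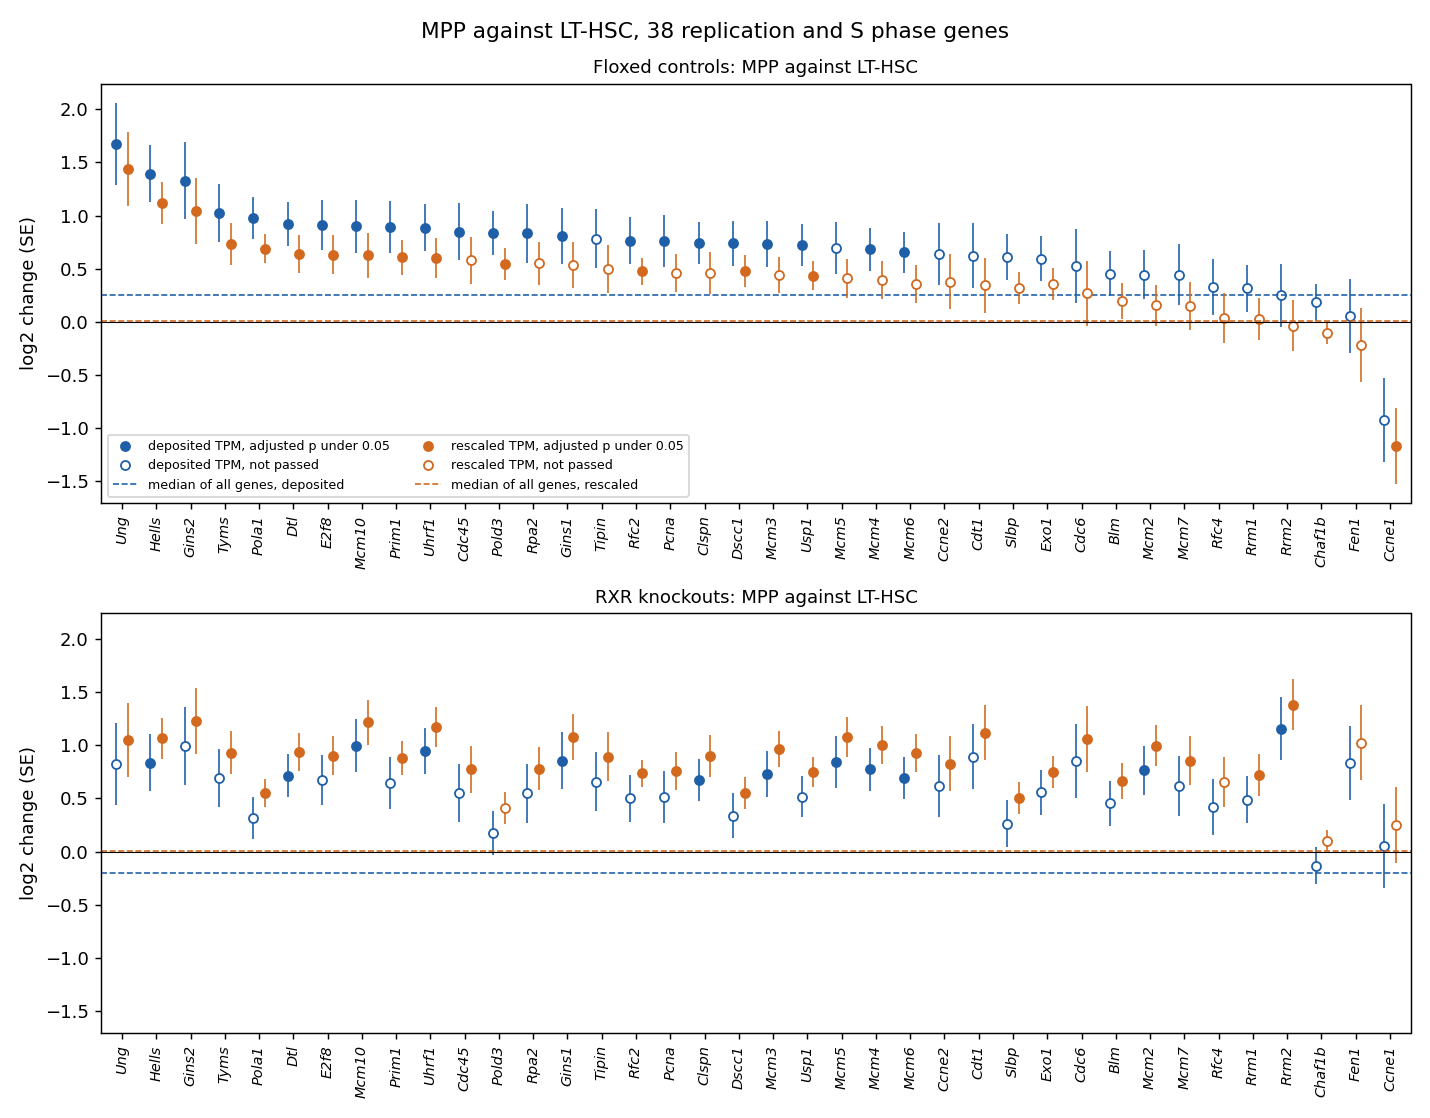
Log2 difference on the log2(TPM + 1) scale between MPP and LT-HSC (y axis, bars are SE) for each of 38 genes (x axis, ordered by the floxed controls), on deposited and rescaled TPM. Filled points passed the test (22 and 14 higher in floxed controls, 12 and 33 in knockouts), and dashed lines mark the median of all genes, at 0.26 and 0.01 above and at -0.20 and 0.00 below.

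Hells (ENSMUSG00000025001, chromosome 19, 38930262 to 38970470; mm10) encodes a chromatin remodeller that aids DNA methylation during replication. It stood at 13.04, 8.41 and 21.1 TPM in floxed control LT-HSC 1, 2 and 3 and at 38.2, 33.1 and 38.9 TPM in the matching MPP. Every MPP value lay above every LT-HSC value. The log2 difference was 1.40 (SE 0.27) with an adjusted limma p of 0.00203, and 1.12 after rescaling (adjusted p = 0.00117). Pola1 (ENSMUSG00000006678, chromosome X, 93304766 to 93632387), the catalytic subunit of polymerase alpha, measured 17.02, 14.95 and 22.7 TPM in LT-HSC and 37.4, 36.2 and 35.1 TPM in MPP. The sets did not overlap, and the log2 difference was 0.97 (SE 0.20) (limma adjusted p = 0.0029, rescaled 0.69 and 0.00237). Ung (ENSMUSG00000029591, chromosome 5, 114130366 to 114139321), which removes uracil from new DNA, stood at 10.3, 2.25 and 13.97 TPM in LT-HSC and 23.9, 23.4 and 28.5 TPM in MPP, with no overlap. Its log2 difference of 1.68 (SE 0.39) passed on both scales (limma adjusted p = 0.00702, rescaled 0.00957). Hells, Pola1 and Ung were the 3 members that passed on both scales in each of 6 fits that left out 1 library of the pair of groups. The share of all genes that passed in each of these fits was not computed.

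Dtl (ENSMUSG00000037474, chromosome 1, 191537356 to 191575544) encodes the substrate receptor that marks Cdt1 for destruction in S phase. Its LT-HSC levels of 13.9, 11.1 and 19.1 TPM lay below the MPP levels of 28.1, 27.6 and 28.4 TPM, a log2 difference of 0.92 (SE 0.20) (limma adjusted p = 0.00552, rescaled 0.0198). Uhrf1, which brings Dnmt1 to newly replicated DNA, was at 16.4, 15.1 and 25.3 TPM against 36.03, 32.1 and 37.1 TPM (log2 difference 0.89, limma adjusted p = 0.0102, rescaled 0.0358). Pold3, an accessory subunit of polymerase delta, was at 32.7, 30.8 and 43.1 TPM against 73.01, 57.7 and 61.1 TPM (0.84, limma adjusted p = 0.01, rescaled 0.021). For all of Dtl, Uhrf1 and Pold3 the lowest MPP value exceeded the highest LT-HSC value. E2f8, a repressor of E2F targets that is itself made in S phase, stood at 12.97, 9.18 and 21.05 TPM in LT-HSC and at 25.7, 25.5 and 28.3 TPM in MPP (0.91, limma adjusted p = 0.0141, rescaled 0.0245). Tyms was at 41.6, 22.5 and 59.3 TPM and 73.4, 72.8 and 91.2 TPM (1.02, limma adjusted p = 0.0161, rescaled 0.0187). In both genes floxed control 3 was the highest of the LT-HSC libraries and floxed control 2 the lowest.

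The helicase subunits were called on deposited TPM only in part. Mcm3 (log2 difference 0.73, limma adjusted p = 0.0269), Mcm4 (0.68, 0.0275) and Mcm6 (0.65, 0.0291) passed there and not after rescaling (adjusted p = 0.0813, 0.133 and 0.168). Mcm2 at 29.6 ± 8.604 TPM (SD, n = 3) in LT-HSC and 39.8 ± 6.44 TPM (SD, n = 3) in MPP, Mcm5 at 23.4 ± 8.61 TPM (SD, n = 3) and 36.9 ± 4.27 TPM (SD, n = 3), and Mcm7 at 76.8 ± 34.4 TPM (SD, n = 3) and 98.3 ± 16.9 TPM (SD, n = 3) did not pass on either scale. Pcna passed on deposited TPM (244, 125 and 240.1 TPM in LT-HSC, 317, 325 and 347 TPM in MPP, limma adjusted p = 0.0386) and had a rescaled adjusted p of 0.0806. Rrm1, Rrm2, Rfc4, Chaf1b and Fen1 had log2 differences between 0.05 and 0.33 on deposited TPM and did not pass.

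Ccne1, which encodes cyclin E1 and acts at entry into S phase, went the other way. It measured 5.61, 2.73 and 16.7 TPM in floxed control LT-HSC and 2.36, 3.36 and 3.36 TPM in MPP. The log2 difference was -0.92 (SE 0.39) on deposited TPM (limma adjusted p = 0.105) and -1.17 after rescaling, where it passed as lower in MPP (0.0324). Floxed control 3 held the highest value. Replicate 2 was lower in LT-HSC than in MPP on deposited TPM (2.73 and 3.36) and higher after rescaling over all 21 libraries (4.16 and 3.43). Ccne1 stayed lower in MPP after rescaling when any 1 LT-HSC control was omitted, and was lower on deposited TPM without floxed control LT-HSC 2. It did not pass on either scale when any 1 MPP control was omitted. Ccne2, encoding cyclin E2, was at 8.93, 3.97 and 14.1 TPM and 13.1, 13.4 and 12.7 TPM and did not pass (limma adjusted p = 0.132, rescaled 0.319).

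The counts depended on single libraries. Without floxed control LT-HSC 3, 31 members were higher on deposited TPM and 23 after rescaling, beside 20.1% and 13.9% of all genes. Floxed control LT-HSC 3 had the highest level of 7 of 8 erythroid markers among LT-HSC libraries, with an erythroid sum of 395 TPM against 24.7 to 141 TPM in the other 14. No erythroid marker was at 0 in all floxed LT-HSC, and the part of those cells in the result was not tested. Without any 1 of the 3 MPP controls, 8 to 12 members were higher on deposited TPM (7.82% to 10.7% of all genes) and 5 to 8 after rescaling (7.26% to 9.88%). Without floxed control LT-HSC 1, 18 were higher on deposited TPM (17% of all genes) and 4 after rescaling (8.62%). Without floxed control LT-HSC 2, the library with the lowest summed level of the members (709.8 TPM), the counts were 13 (9.52%) and 6 (9.71%).

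The E2F motif is printed here for the members that carry it, since E2F factors are the known regulators of this set of genes. Promoters of 29 of 38 members were in the RefSeq table (GRCm38.p6, 250 bases before to 50 after each start), and both strands were searched for TTTCCCGC, TTTCGCGC, TTTGCCGC and TTTGGCGC. Of the 29 members, 12 held a match (41.4%), against 704 of 27025 genes with a promoter in the table (2.6%). The other pathway genes had a match in 23 of 78 (29.5%) and G2 and mitosis genes in 1 of 18 (5.56%). CCAAT was found in 19 of 29 members (65.5%) and 41.1% of all genes, and TTTGAA, the letters of the CHR element, in 4 of 29 members (13.8%), 20.2% of all genes and 14 of 18 G2 and mitosis genes (77.8%). A match describes letters in this window and not a bound site. Among members higher in MPP on both scales the match was present in 5 of 10 with a promoter (50%), and among the other members in 7 of 19 (36.8%). The 4 promoters below belong to the members of smallest p in that comparison that held a match, from 250 bases before the start to 30 after it on the gene's own strand, with the match in capitals.
Hells, chr19:38930740-38931019, plus strand: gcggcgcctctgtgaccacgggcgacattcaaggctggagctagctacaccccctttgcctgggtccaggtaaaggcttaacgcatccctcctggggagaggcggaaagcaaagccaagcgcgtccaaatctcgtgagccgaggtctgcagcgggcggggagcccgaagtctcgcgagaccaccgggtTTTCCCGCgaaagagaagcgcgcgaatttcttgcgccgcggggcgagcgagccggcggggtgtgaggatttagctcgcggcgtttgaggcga
Pola1, chrX:93632126-93632405, minus strand: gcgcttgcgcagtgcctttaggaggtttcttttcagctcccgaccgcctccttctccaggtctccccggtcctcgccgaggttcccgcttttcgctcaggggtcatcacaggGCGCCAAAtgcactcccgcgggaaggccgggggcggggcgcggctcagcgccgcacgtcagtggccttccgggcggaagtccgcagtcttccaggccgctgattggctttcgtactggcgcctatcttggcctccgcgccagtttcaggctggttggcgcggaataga
Dtl, chr1:191575515-191575794, minus strand: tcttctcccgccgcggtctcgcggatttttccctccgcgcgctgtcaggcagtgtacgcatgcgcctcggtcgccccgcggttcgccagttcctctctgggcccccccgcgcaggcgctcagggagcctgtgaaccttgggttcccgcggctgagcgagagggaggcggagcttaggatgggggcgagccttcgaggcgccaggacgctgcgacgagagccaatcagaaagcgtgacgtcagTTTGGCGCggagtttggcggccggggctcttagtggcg
Pold3, chr7:100121473-100121752, minus strand: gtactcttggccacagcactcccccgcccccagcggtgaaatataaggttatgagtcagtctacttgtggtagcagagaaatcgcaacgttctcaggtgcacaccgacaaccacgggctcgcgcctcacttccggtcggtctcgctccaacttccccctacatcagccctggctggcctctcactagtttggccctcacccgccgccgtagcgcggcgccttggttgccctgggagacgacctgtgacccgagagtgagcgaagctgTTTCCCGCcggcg

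The other 8 members with a match are shown as windows of 30 bases on the gene's strand. Counted from the transcription start, matches or runs began at 20 and 39 in Mcm3 and at -153 in Mcm5. They began at -110 and -47 in Mcm6 and at -165 and 17 in Mcm7. The promoter of Mcm2 and another start site of Mcm7 held no match, and Mcm4 had no promoter in the RefSeq table. Capitals mark matches, and in Mcm5 and Mcm6 a pair of overlapping matches on opposite strands forms one longer run. The windows of Mcm3 overlap, so the second opens with the end of its first match.
Mcm3, chr1:20820275-20820304, minus strand: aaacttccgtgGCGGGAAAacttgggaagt
Mcm3, chr1:20820263-20820292, minus strand: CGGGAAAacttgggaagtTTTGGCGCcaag
Mcm5, chr8:75109347-75109376, plus strand: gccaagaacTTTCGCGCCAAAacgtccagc
Mcm6, chr1:128359795-128359824, minus strand: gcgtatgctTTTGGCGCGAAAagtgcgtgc
Mcm6, chr1:128359734-128359763, minus strand: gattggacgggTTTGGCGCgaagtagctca
Mcm7, chr5:138172030-138172059, minus strand: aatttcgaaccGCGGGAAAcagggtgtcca
Mcm7, chr5:138171849-138171878, minus strand: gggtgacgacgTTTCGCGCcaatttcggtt
Cdc6, chr11:98908002-98908031, plus strand: gccggtggagaGCGGGAAAtcgcctggggt
Cdt1, chr8:122568035-122568064, plus strand: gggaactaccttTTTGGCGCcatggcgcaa
Clspn, chr4:126556990-126557019, plus strand: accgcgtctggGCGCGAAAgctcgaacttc
Uhrf1, chr17:56304117-56304146, plus strand: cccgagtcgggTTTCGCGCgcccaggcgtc

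In the RXR knockouts the same pair of cell types was compared within the knockout libraries. On deposited TPM 12 members were higher in MPP and 0 lower, beside 3.99% and 15.5% of all genes, and after rescaling 33 were higher and 0 lower, beside 10.8% and 12.3%. The median log2 difference over members was 0.67 on deposited TPM with all genes at -0.20, and 0.90 after rescaling with all genes at 0.00. The 12 called on both scales were Mcm2, Mcm3, Mcm4, Mcm5, Mcm6, Mcm10, Gins1, Rrm2, Uhrf1, Hells, Clspn and Dtl. Mcm10, Uhrf1, Hells and Dtl were higher in MPP on both scales in both genotypes. Stem cells and progenitors with the same number carry the same code in the labels, which do not say what the code stands for. With the replicate number as a block 21 members were higher on deposited TPM (5.05% of all genes) and 35 after rescaling (14% of all genes).

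Rrm2 (ENSMUSG00000020649, chromosome 12, 24708254 to 24714146), the S phase subunit of ribonucleotide reductase, measured 16.95, 22.6 and 14.9 TPM in knockout LT-HSC 1, 2 and 3 and 41.1, 36.9 and 45.9 TPM in knockout MPP. Each MPP value was higher than each LT-HSC value, with a log2 difference of 1.16 (SE 0.29) (limma adjusted p = 0.0113; rescaled 1.38, 0.00117). In floxed controls Rrm2 was at 22.7, 13.3 and 41.1 TPM in LT-HSC and at 26.9, 25.3 and 31.9 TPM in MPP, where the groups overlapped (log2 difference 0.25, limma adjusted p = 0.565). Uhrf1 was at 19.4, 25.7 and 15.5 TPM in knockout LT-HSC and 36.99, 36.3 and 44.4 TPM in knockout MPP (0.94, limma adjusted p = 0.00605; rescaled 1.17, 0.000728). Uhrf1 was the one member that passed on deposited TPM in all 6 fits without 1 library, and 21 members did so after rescaling. The share of all genes that passed in all 6 fits was not computed. Mcm10, which helps to start the helicase, was at 11.1, 16.9 and 10.1 TPM and 24.4, 25.3 and 27.5 TPM (0.9973, limma adjusted p = 0.0102; rescaled 1.22, 0.00128).

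Of the 6 helicase subunits, 6 passed in this comparison after rescaling and 5 on deposited TPM. Mcm4 stood at 27.3, 31.4 and 19.6 TPM in knockout LT-HSC and 47.4, 43.05 and 43.4 TPM in MPP, a log2 difference of 0.77 (limma adjusted p = 0.0137, rescaled 0.00155). Mcm5 was at 21.7, 27.01 and 16.7 TPM and 38.99, 37.996 and 41.1 TPM (0.85, limma adjusted p = 0.0233, rescaled 0.00119), and Mcm6 at 64.7, 74.6 and 46.3 TPM and 101, 95.7 and 100.1 TPM (0.69, 0.0214, rescaled 0.00245). In these 3 subunits every MPP library exceeded every LT-HSC library, and knockout LT-HSC 3 was the lowest knockout library. Mcm7 passed only after rescaling (limma adjusted p = 0.0161; deposited 0.149).

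Clspn, the adaptor that passes the ATR checkpoint signal to Chk1, was at 16.001, 19.04 and 11.3 TPM in knockout LT-HSC and 22.3, 26.4 and 25.7 TPM in MPP (0.68, limma adjusted p = 0.0259, rescaled 0.00531). Dtl was at 16.01, 19.7 and 12.6 TPM and 28.9, 25.4 and 25.8 TPM (0.72, limma adjusted p = 0.0224, rescaled 0.00212). Both sets were separate between the cell types. Fen1, Rfc4, Pold3, Chaf1b and Ccne1 were the 5 members that passed on neither scale. Chaf1b, a subunit of the histone chaperone CAF-1, was at 40.9, 52.001 and 44.3 TPM in knockout LT-HSC and 37.5, 43.7 and 43.2 TPM in knockout MPP (-0.13, limma adjusted p = 0.649). Without knockout LT-HSC 3 a single member, Uhrf1, was called on deposited TPM (2.91% of all genes higher) and 21 after rescaling (6.27%). Without knockout MPP 1, 2 or 3 the deposited counts were 5, 4 and 4 (3.22%, 3.06% and 2.81% of all genes) and the rescaled counts 24, 28 and 29 (6.65%, 8.71% and 7.65%). Neutrophil markers summed to 1268 TPM in knockout LT-HSC 3 and to 269.99 to 803.1 TPM in knockout MPP, and their part in the result was not tested.

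Every MPP library of batch 1 lay above every LT-HSC library of batch 1 for 18 members on deposited TPM and for 20 after rescaling, beside 5.48% and 7.75% of all genes. The 4 helicase subunits Mcm3, Mcm4, Mcm5 and Mcm6 were among the 18, and all but Mcm5 among the 20. Other genes of the pathway, in a list of 93, showed 37 of 92 tested higher and 0 lower in floxed controls. All genes stood at 15.5% and 5.62%. After rescaling 28 were higher and 5 lower, beside 11.2% and 12.5% of all genes. Brip1, a helicase of fork repair (1.17 (SE 0.21)), Shmt1, which feeds thymidylate synthesis (1.14 (SE 0.22)), Brca1 (1.03 (SE 0.21)), Ticrr, which fires origins (1.07 (SE 0.21)), Mcmbp (1.0032 (SE 0.21)) and Topbp1 (0.76 (SE 0.17)) had the smallest p in that list, as log2 differences on deposited TPM (limma adjusted p = 0.00109 to 0.00653). In knockouts 12 were higher and 1 lower, beside 3.99% and 15.5% of all genes. After rescaling 53 were higher and 1 lower, beside 10.8% and 12.3%. Of 20 genes of G2 and mitosis, 9 were higher in floxed controls (6 after rescaling) and 2 in knockouts (15 after rescaling), with 0 lower. The same shares of all genes apply to these counts.

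**Figure D2:**
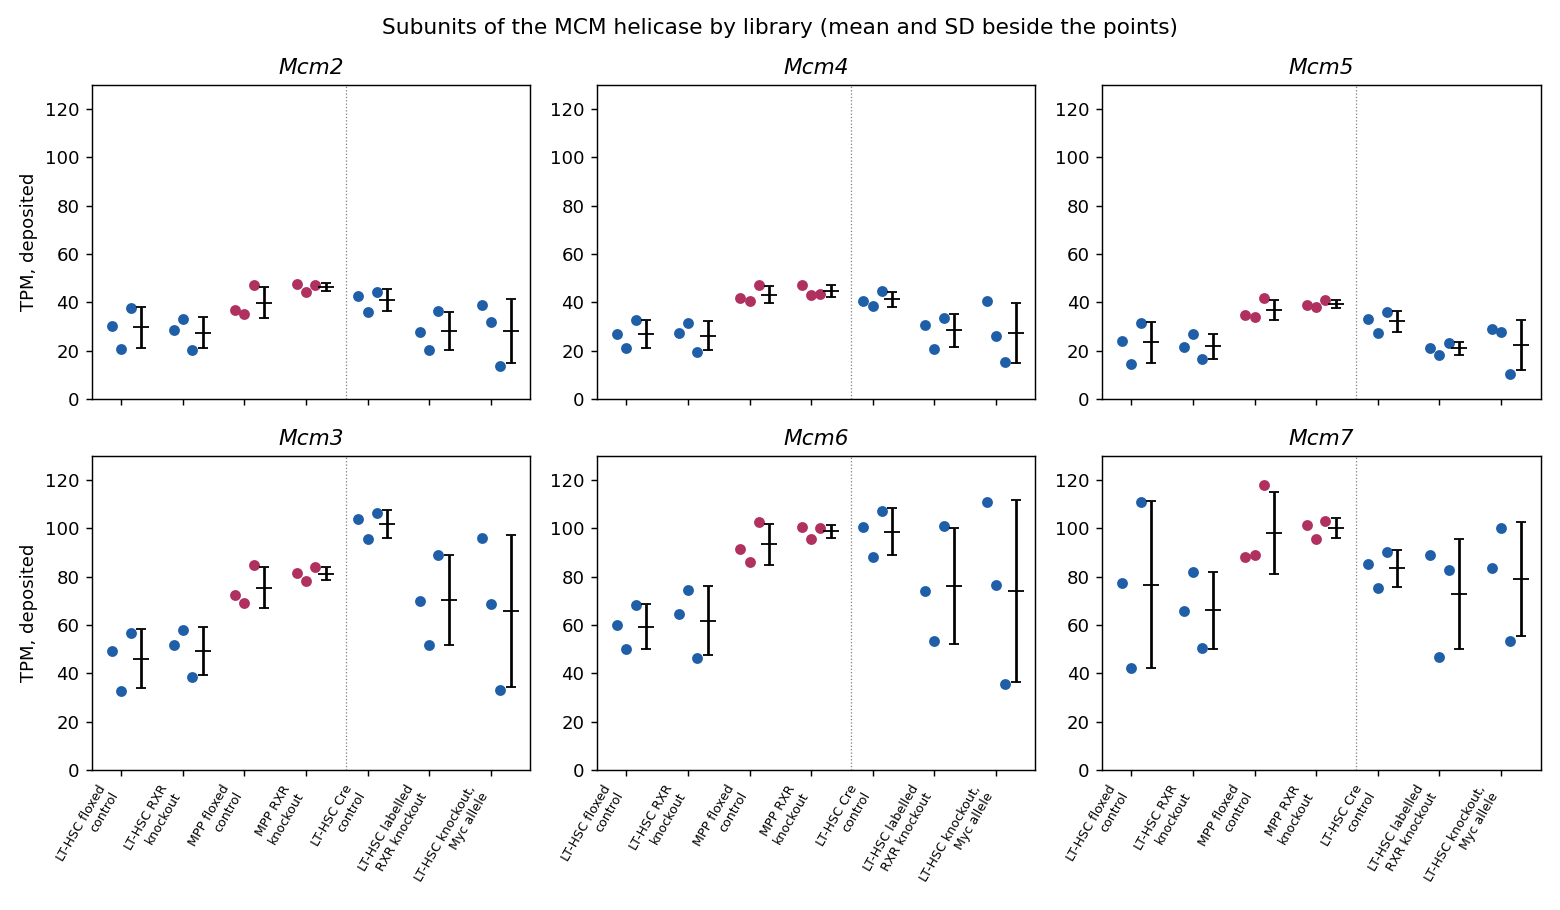
Deposited TPM (y axis) of the 6 MCM helicase subunits in each library, grouped by cell type and genotype (x axis, 3 points a group, MPP in red, LT-HSC in blue), with the mean and SD beside each group; the dotted line separates batch 1 from batch 2. Mcm3, Mcm6 and Mcm7 sit above Mcm2, Mcm4 and Mcm5 in all 21 libraries, and MPP reach 34.0 to 118 TPM against 14.4 to 111 TPM in batch 1 LT-HSC.

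The members spanned a wide range of levels. Pcna was the highest of the 38 on TPM in floxed control LT-HSC, Cre control LT-HSC and floxed control MPP, at 203 ± 67.9 TPM (SD, n = 3), 215 ± 19.96 TPM (SD, n = 3) and 329 ± 15.6 TPM (SD, n = 3). Next in floxed control LT-HSC came Mcm7 at 76.8 ± 34.4 TPM (SD, n = 3) and Mcm6 at 59.4 ± 9.19 TPM (SD, n = 3). Slbp, which binds histone mRNA, followed at 49.01 ± 16.4 TPM (SD, n = 3), and Mcm3 at 46.1 ± 12.3 TPM (SD, n = 3). Differences between genes were not tested. The genes share libraries, so the SD between libraries cannot decide their order. The lowest were Ccne1 at 8.34 ± 7.36 TPM (SD, n = 3), Dscc1 at 7.31 ± 1.79 TPM (SD, n = 3), Blm at 6.03 ± 2.07 TPM (SD, n = 3) and Exo1 at 4.42 ± 1.19 TPM (SD, n = 3), again not tested against each other. Although the 6 helicase subunits act in equal number in the hexamer, Mcm3, Mcm6 and Mcm7 each exceeded Mcm2, Mcm4 and Mcm5 in 21 of 21 libraries. The mean TPM of the upper 3 was 2.12 to 3.10 times that of the lower 3, a pattern singled out after the values were seen and resting on the transcript models used for TPM, which the sources used here do not name.

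Knockout and floxed control LT-HSC of batch 1 were read differently on the 2 scales. On deposited TPM, 5 members were higher in knockouts and 0 lower, but 44.6% of all genes were higher and 0.58% lower, and the median of all genes lay at 0.52. Relative to that median 33 of 38 members were below it, with a member median of 0.17. After rescaling 0 were higher and 2 were lower, beside 2.54% and 2.16% of all genes, with a member median of -0.38 and an all-gene median of -0.00. At an unadjusted limma p under 0.05 the rescaled counts were 0 higher and 18 lower, beside 14.3% and 12.7% of all genes, and the deposited counts 6 and 0, beside 56.1% and 0.863%.

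**Figure D3:**
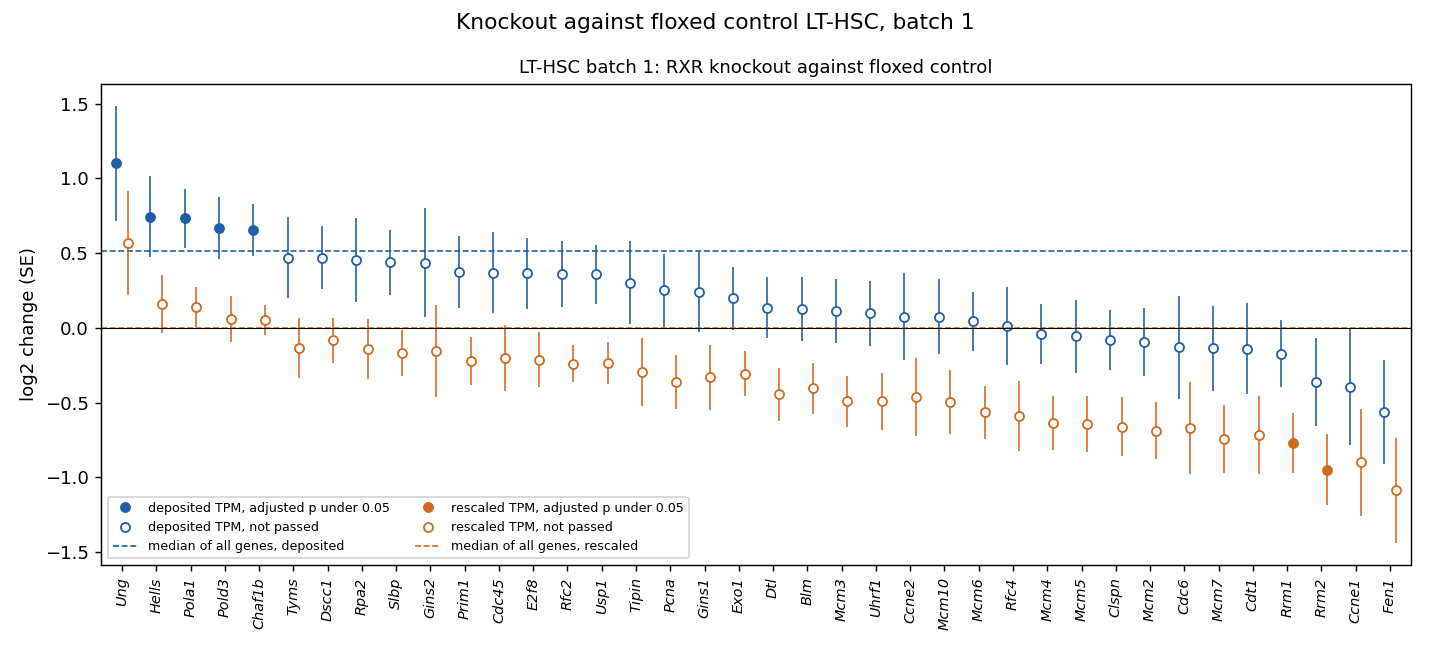
Log2 difference on the log2(TPM + 1) scale between knockout and floxed control LT-HSC of batch 1 (y axis, bars are SE) for 38 genes (x axis), on deposited and rescaled TPM. Filled points passed the test: 5 higher on deposited TPM and 2 lower after rescaling, with dashed lines at the median of all genes, 0.52 and -0.00.

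The 5 members higher on deposited TPM were Chaf1b, Pola1, Pold3, Ung and Hells. Chaf1b stood at 31.8, 23.1 and 31.6 TPM in floxed controls and 40.9, 52.001 and 44.3 TPM in knockouts, where every knockout lay above every control (0.66 (SE 0.18), limma adjusted p = 0.0123). Pola1 was at 17.02, 14.95 and 22.7 TPM against 24.1, 37.02 and 31.7 TPM (0.73, limma adjusted p = 0.0124), and Pold3 at 32.7, 30.8 and 43.1 TPM against 48.2, 61.2 and 60.8 TPM (0.67, 0.0205). These groups were separate too. Ung was at 10.3, 2.25 and 13.97 TPM against 19.01, 16.6 and 14.3 TPM (1.10, limma adjusted p = 0.0338) and Hells at 13.04, 8.41 and 21.1 TPM against 19.9, 30.2 and 20.004 TPM (0.74, 0.0375). The Ung groups were separate, while in Hells floxed control 3 overlapped the knockouts. After rescaling their log2 differences were 0.05, 0.14, 0.06, 0.57 and 0.16, and none passed (limma adjusted p = 0.313 to 0.825).

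Rrm1 and Rrm2, the members that encode ribonucleotide reductase subunits, were lower in knockouts after rescaling. Rrm2b, a subunit gene outside the members, was not called after rescaling. Rrm2 was at 22.7, 13.3 and 41.1 TPM in floxed controls and 16.95, 22.6 and 14.9 TPM in knockouts on the deposited scale. Rrm1 (ENSMUSG00000030978, chromosome 7, 102441695 to 102469771) was at 26.8, 22.8 and 41.7 TPM and 26.3, 33.4 and 20.003 TPM. The deposited ranges overlapped in both genes. Rescaled, the log2 differences were -0.95 (SE 0.24) for Rrm2 (limma adjusted p = 0.0447) and -0.77 (SE 0.20) for Rrm1 (0.0475), while on deposited TPM they were -0.36 (0.295) and -0.17 (0.508). Mcm2, Mcm4, Mcm5 and Mcm7 had rescaled log2 differences of -0.69, -0.64, -0.65 and -0.75 and did not pass (limma adjusted p = 0.0566, 0.0599, 0.0626 and 0.0719). Mcm2 was at 30.2, 20.7 and 37.9 TPM in controls and 28.7, 33.1 and 20.4 TPM in knockouts on the deposited scale, and the groups overlapped.

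None of these calls held in each fit without 1 library, on either scale. On deposited TPM omitting floxed control 3 left 15 members higher (42.8% of all genes), and omitting floxed control 2 left 2 (23.3%). Omitting knockout 2 left 0 (14%), and omitting knockout 3 left 1 (13.1%), so the members' share stayed under that of all genes in these fits. The rescaled lower calls numbered 0 when floxed control 3 (2.12% of all genes lower), knockout 2 (0.37%) or knockout 3 (0.0892%) was omitted. They numbered 1 when floxed control 2 was omitted (1.19%), 4 for floxed control 1 (2.37%) and 10 for knockout 1 (4.82%). Without knockout 1 the 10 were Mcm2 to Mcm7, Fen1, Rrm1, Rrm2 and Clspn. Neutrophil markers summed to 128, 393 and 1268 TPM in the knockouts and to 35.2 to 59.4 TPM in the controls, with every knockout above every control in 4 of 6 markers and no marker at 0 in all knockouts. Erythroid markers summed to 141, 99.01 and 395 TPM in controls 1, 2 and 3 and to 57.4 to 129.89 TPM in knockouts, with every knockout below every control in 2 of 8 markers (Klf1 and Car1) and none at 0. Mast cell and eosinophil markers summed to 15.7 to 43.8 TPM against 3.03 to 6.76 TPM. Of 10 LT-HSC markers, 8 were higher in every knockout than in every control. These marker comparisons are on deposited TPM, where 44.6% of all genes passed as higher in knockouts. The share of all genes with every knockout above every control was not computed. The part of other cells in these differences was not tested.

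Of the other pathway genes 23 of 92 were higher in knockout LT-HSC and 0 lower on deposited TPM, beside 44.6% and 0.58% of all genes. After rescaling 0 were higher and 4 lower, beside 2.54% and 2.16%. The 4 lower were E2f4, a repressive E2F (-0.77), Pole3 (-0.63), Chaf1a, the large subunit of CAF-1 (-0.63), and Orc6 (-0.69), as rescaled log2 differences with limma adjusted p of 0.0288 to 0.0469. Of the 23, Rrm2b, the ribonucleotide reductase subunit of non-dividing cells (1.01), E2f7 (0.94), Samhd1, which breaks down dNTPs (0.83), Rad54l (0.83), E2f3 (0.78) and Orc3 (0.74) had the smallest p (limma adjusted p = 0.00637 to 0.0123).

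In MPP, knockouts and floxed controls gave 0 calls among members on either scale (limma, 0.323% of all genes called on deposited TPM and 0.58% after rescaling), with 0 and 1 at an unadjusted p under 0.05 (6.35% and 9.46% of all genes). The smallest p values on deposited TPM belonged to Chaf1b at 32.6, 32.3 and 32.7 TPM in controls and 37.5, 43.7 and 43.2 TPM in knockouts (0.34 (SE 0.18), limma adjusted p = 0.857) and Rrm2 at 26.9, 25.3 and 31.9 TPM and 41.1, 36.9 and 45.9 TPM (0.55 (SE 0.29), 0.888). In both genes each knockout value lay above each control value. Ccne1 was at 2.36, 3.36 and 3.36 TPM and 4.99, 4.12 and 5.99 TPM, and Gins1, a GINS subunit, at 21.3, 21.7 and 27.3 TPM and 26.99, 28.2 and 30.9 TPM. Their 95% confidence intervals of the log2 difference were -0.25 to 1.42 and -0.28 to 0.86.

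The difference between the knockout effects in MPP and LT-HSC, tested as an interaction, also gave 0 calls among members (0.0809% and 0.027% of all genes). At an unadjusted limma p under 0.05, 1 member was above 0 and 2 below on deposited TPM, beside 0.317% and 25.9% of all genes. After rescaling 10 were above and 0 below, beside 5.45% and 7.26%. Rrm2 had the smallest rescaled p, with an interaction of 1.42 (SE 0.34) and an adjusted limma p of 0.232, and 0.91 (0.185) on deposited TPM. Pola1 (-0.65 (SE 0.28), limma adjusted p = 0.165), Pold3 (-0.67, 0.172) and Ccne1 (0.98, 0.252) were the other 3 of the 4 smallest p on deposited TPM. The 2 effects are therefore not shown to differ for any member.

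**Figure D4:**
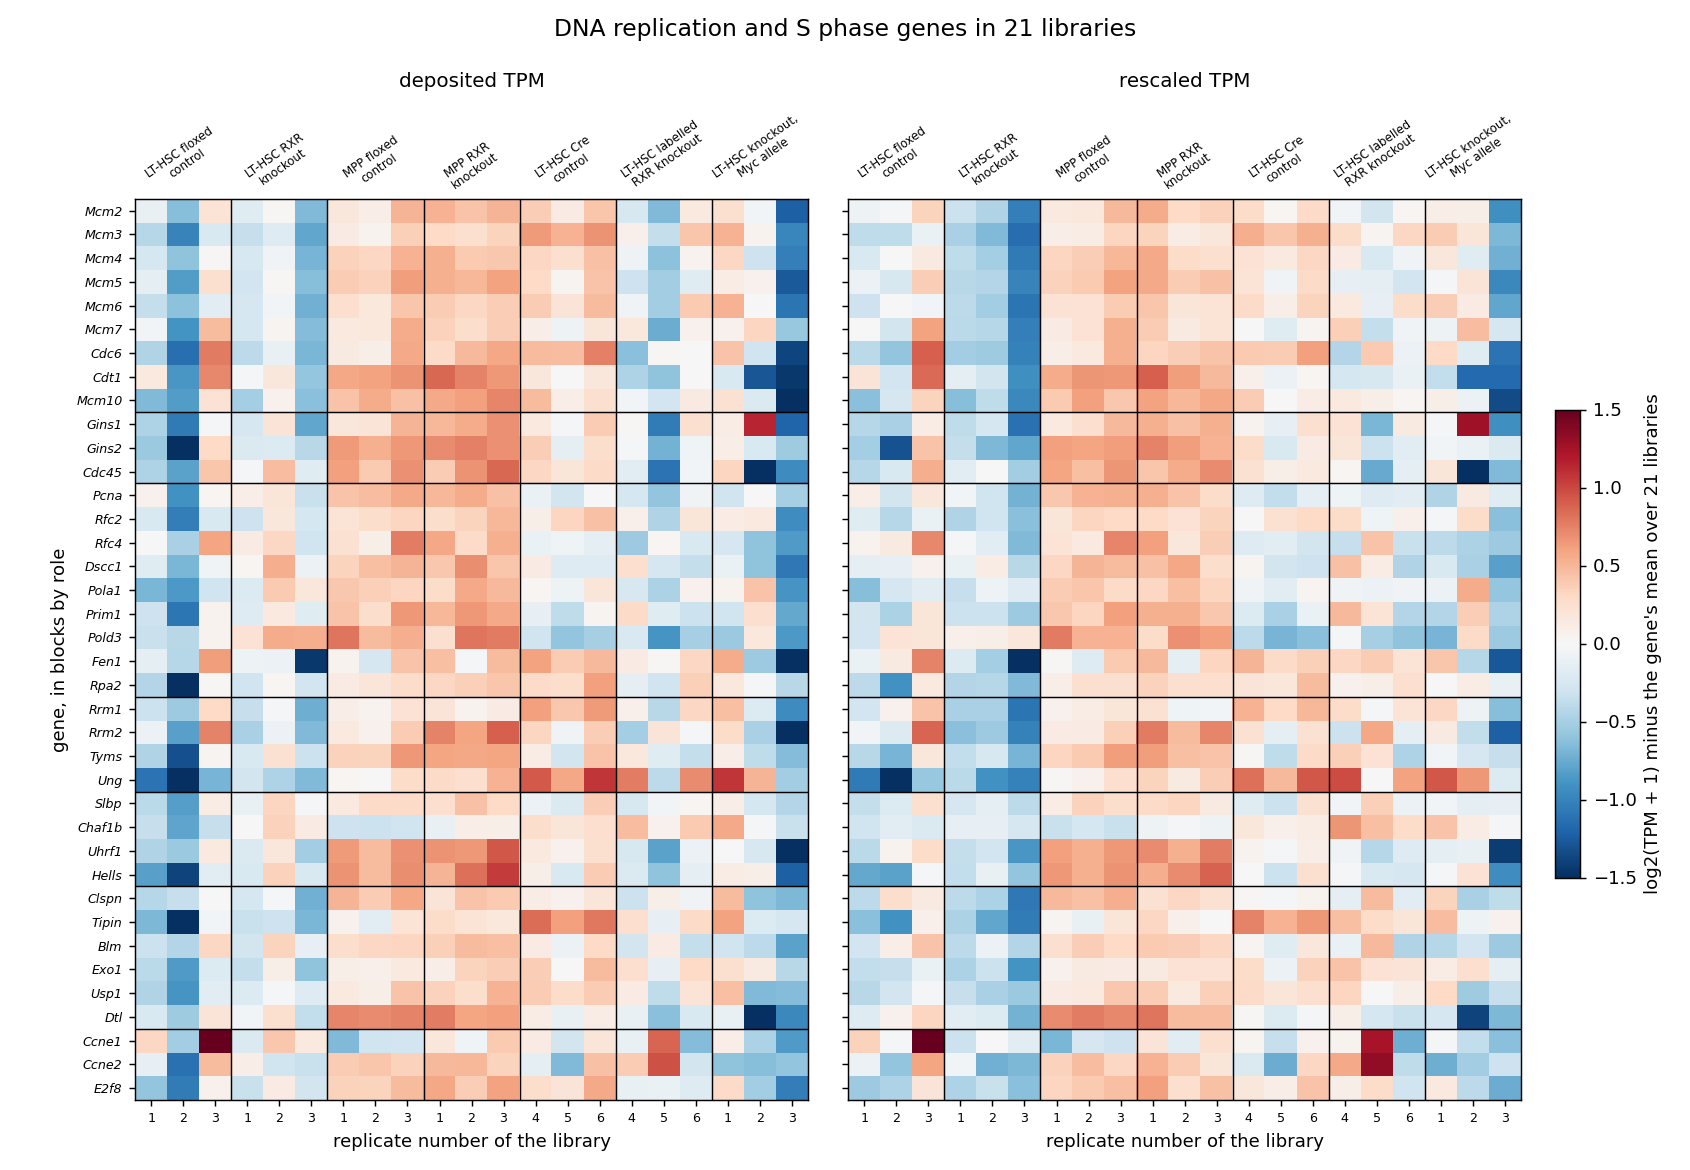
Log2(TPM + 1) minus each gene's mean over 21 libraries, as colour (red higher, blue lower, saturated beyond 1.5), for 38 genes in blocks by role (rows) and 21 libraries by group (columns), on deposited TPM at the left and rescaled TPM at the right. The 6 MPP libraries are red in most rows on both scales, and floxed control LT-HSC 2 and Myc allele 3 are blue throughout on deposited TPM.

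Batch 2 held no called member in any comparison. In libraries labelled knockout against Cre controls 0 members passed on either scale (limma, 0.0744% and 0.0521% of all genes), with 1 and 0 lower at an unadjusted p under 0.05 (3.64% and 1.62% of all genes). Tipin, a fork protection factor, was at 88.5, 75.6 and 85.1 TPM in Cre controls 4, 5 and 6 and at 58.5, 45.01 and 60.01 TPM in the libraries labelled knockout (-0.61 (SE 0.27), limma adjusted p = 0.705). The groups did not overlap. Cdc6 was at 15.6, 15.4 and 19.001 TPM and 6.72, 11.1 and 10.96 TPM (-0.76), Mcm5 at 33.05, 27.5 and 36.2 TPM and 21.2, 18.2 and 23.4 TPM (-0.60), and Rrm1 at 52.4, 44.98 and 53.1 TPM and 35.7, 25.2 and 42.2 TPM (-0.56). All had an adjusted limma p of 0.705, with every Cre control above every library labelled knockout. The share of all genes with such a separation was not computed. The member median was -0.35 with all genes at -0.25, and -0.08 with all genes at -0.00 after rescaling.

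With the Myc allele, 0 members passed against the libraries labelled knockout (limma, 0% of all genes on deposited TPM and 0% after rescaling, with 1 and 2 members lower at an unadjusted p under 0.05, beside 1.66% and 2.92% of all genes). The smallest p values there were those of Ccne2, at 13.1, 19.9 and 7.92 TPM in libraries labelled knockout and 6.12, 5.96 and 6.18 TPM with the Myc allele (-0.96), and Cdt1, at 12.5, 11.2 and 17.6 TPM and 14.8, 6.62 and 5.81 TPM (-0.63). Dtl (-0.54) and Fen1, the flap endonuclease (-0.65), followed, all with an adjusted limma p of 1. Against Cre controls 0 passed as well (limma, 0.104% and 0.0818% of all genes), with 9 and 6 members lower at an unadjusted p under 0.05, beside 6.66% and 4.27% of all genes. Cdt1 had the smallest p, at 19.8, 17.7 and 19.8 TPM in Cre controls (-1.10 (SE 0.34), limma adjusted p = 0.503; rescaled -0.88, 0.536), and all 3 Myc allele libraries lay below all 3 controls. Tipin (-0.70), Dtl (-0.89) and Cdc6 (-0.98) came next with the same adjusted p.

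Leaving out 1 library changed that count. Without Myc allele 1, 9 members were lower than in Cre controls on deposited TPM (5.31% of all genes lower): Cdc6, Cdt1, Cdc45, Fen1, Rrm1, Tipin, Usp1, Dtl and E2f8. Cdt1 and Fen1 were lower after rescaling too (1.49%). Myc allele 3 had the lowest sum of the members in that group, 793.9 TPM, the lowest sum of the table and the highest mitochondrial share, 10.64%, beside 8.62% in Myc allele 2 and 1.98% in Myc allele 1. The part of RNA quality in the result was not tested.

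A fit with a batch term compared libraries labelled knockout with the controls over both batches, and 0 members passed (limma, 0.421% of all genes on deposited TPM and 0% after rescaling). At an unadjusted p under 0.05 0 members were higher and 0 lower on deposited TPM, beside 14.2% and 0.959% of all genes, and 1 was higher and 10 lower after rescaling, beside 12% and 7.4%. Chaf1b (0.36 (SE 0.19), limma adjusted p = 0.39), Fen1 (-0.45, 0.441), Rrm1 (-0.37, 0.463) and Cdc6 (-0.45, 0.5) had the smallest deposited p. The difference of batch 2 libraries labelled knockout from Cre controls was set against that of batch 1 knockouts from floxed controls as an interaction, and 0 members passed (limma, 1.27% and 0.124% of all genes). At an unadjusted p under 0.05, 8 and 0 members were lower, beside 39.9% and 5.27% of all genes. Pola1 (-1.0003 (SE 0.34), limma adjusted p = 0.0716), Hells (-1.15, 0.0779), Ung (-1.59, 0.0801) and Cdc45 (-1.06, 0.102) had the smallest p, and these 4 passed without library 6 labelled knockout, when 38.1% of all genes were lower.

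Controls of the batches stood at different levels for some members. Ung averaged 8.84 ± 5.99 TPM (SD, n = 3) in floxed controls of batch 1 and 43.3 ± 7.46 TPM (SD, n = 3) in Cre controls of batch 2, 4.90 times as much. Tipin (2.65 times) and Mcm3 (2.21 times) followed, and in all 3 genes every Cre control exceeded every floxed control. Pcna, at 1.06 times, and Mcm7, at 1.09 times, were much closer, and Ccne1 was at 0.530 times. Genotype and batch cannot be told apart here, and no test was made.

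**Figure D5:**
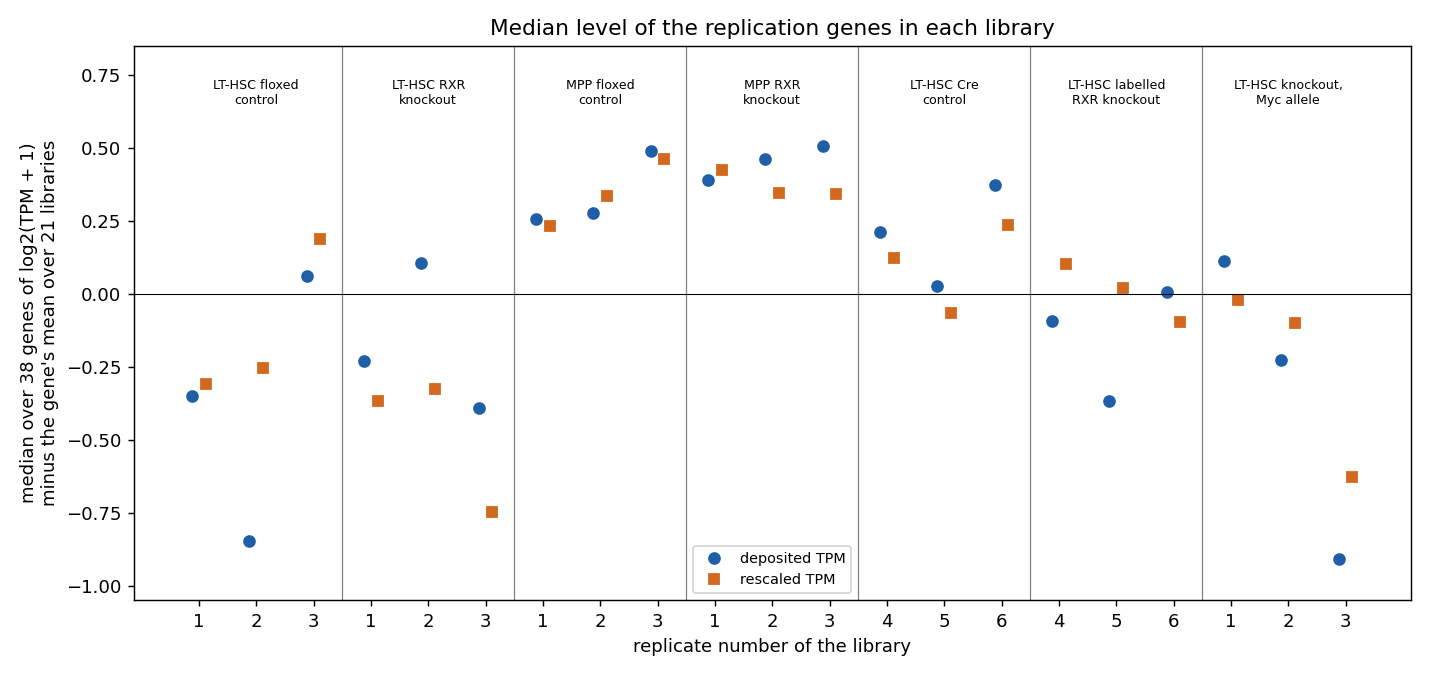
Median over the 38 genes of log2(TPM + 1) minus each gene's own mean over 21 libraries (y axis) in each library (x axis, by group), on deposited TPM (circles) and rescaled TPM (squares). MPP libraries lie between 0.23 and 0.51 on both scales, and knockout LT-HSC 3 and Myc allele 3 lie at -0.75 and -0.63 after rescaling.

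How closely members followed one another differed between genes. Over the 15 LT-HSC libraries, after subtracting group means on rescaled TPM, each member was correlated with the mean of the other 37. The correlation ran from 0.22 for Pold3, 0.37 for Cdc45 and 0.39 for Ccne2 to 0.90 for Hells and 0.91 for Mcm5, as a description over libraries that share depth and size factors. Single libraries stood apart in some members. In Myc allele 2, Gins1 stood at 42.7 TPM and Cdc45 at 2.90 TPM, against 7.59 to 24.7 TPM and 5.57 to 18.4 TPM in the other 14 LT-HSC libraries. Library 5 labelled knockout held the highest Ccne2 of all libraries, 19.9 TPM, with Ccne1 at 8.81 TPM, while its Mcm2 and Mcm3 were the lowest of that group at 20.4 and 51.7 TPM.

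Splicing of the members was read from 130 deposited events in 28 members, 96 of them intron retention and 16 cassette exons, with PSI as a fraction. No member event passed in any of 8 comparisons (limma, adjusted p under 0.05 and a PSI difference of at least 0.1). For knockout against control, 0 of 110 tested events passed in LT-HSC (0.127% of all events) and 0 of 110 in MPP (0.127%). At an unadjusted p under 0.05 and a PSI difference of at least 0.1, 7 and 11 member events were counted. The shares of all events at that p, with no minimum difference, were 11.1% and 8.77%. Unadjusted counts and shares of events below differ in the same way, so they cannot be compared directly. For MPP against LT-HSC, 0 passed in floxed controls (0.402%) and 0 in knockouts (0.244%). The unadjusted counts were 11 and 12, and the shares of all events 11% and 7.53%. In batch 2, 0 of 74 passed for libraries labelled knockout against Cre controls (0.0316%), for the Myc allele against libraries labelled knockout (0.0158%) and for the Myc allele against Cre controls (0.0198%). The unadjusted counts there were 1, 1 and 6, beside 2.9%, 5.95% and 4.2% of all events. Over both batches 0 of 101 passed (0.003%), with an unadjusted count of 0 and a share of all events of 8.44%. Leaving out 1 library gave calls in 4 comparisons. Without knockout MPP 3, 2 events of Clspn passed between genotypes in MPP (0.0965% of all events), and 3 events, of Dtl and Clspn, between cell types in knockouts (0.234%). Without floxed control MPP 2, 1 event of Ccne2 passed between cell types in controls (0.277%), and without Myc allele 1, 1 event of Rpa2 passed against Cre controls (1.27%).

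Among the largest PSI differences was an intron of Clspn between exons 25 and 26 (chromosome 4, mm10, at 126593042), whose retention PSI was 0.909 with the Myc allele and 0.386 in libraries labelled knockout (difference 0.52, limma adjusted p = 0.697), and 0.510 in Cre controls (difference 0.40, adjusted p = 0.826). An intron of Mcm7 (chromosome 5, at 138170809) had a PSI of 0.107, 0.877 and 0.588 in the Myc allele group and 0.039, 0.196 and 0.138 in Cre controls (difference 0.40, limma adjusted p = 0.826). The junction joining exons 1 and 2 of Dtl (chromosome 1, 191570704 to 191575349), singled out after its values were seen, had a PSI of 0.798, 1.000 and 0.864 in floxed control LT-HSC and 0.610, 0.613 and 0.615 in knockout LT-HSC. These groups did not overlap, the difference was -0.27 (limma adjusted p = 0.181), and MPP of both genotypes ranged from 0.572 to 0.808. Read numbers behind PSI are unknown, and no interval for counting error can be given.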

How the data were processed

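RNA from sorted cells (5 ng) was amplified with Ovation RNA-seq v2, made into Nextera XT libraries and sequenced in pairs, per the labels' protocols. Gene values are the authors' deposited TPM, and splicing values are the authors' deposited PSI, a fraction from 0 to 1, in a table of 46443 events whose lowest listed change is 0.15. The submitters' processing notes name kallisto, STAR 2.6 and mm10. For the kallisto version, the transcript models and the event caller, the source is silent: not given in the sources used here. The table held 0 columns of other samples.

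Groups followed the labels. Genes with at least 1 TPM in 3 or more libraries of a fit were tested as log2(TPM + 1) with limma 3.58.1 (R 4.3.3, trended variance), with Benjamini-Hochberg adjustment over all genes and a threshold of 0.05. Differences are on that scale, which understates changes of low genes. Apart from batch 1 MPP against batch 1 LT-HSC, the share of all genes whose groups did not overlap was not computed. Separate fits held the 12 batch 1 libraries, the 9 batch 2 libraries and, with a batch term, 12 LT-HSC libraries. Rescaled TPM used median-of-ratios factors from the tested genes with no zero value in that fit. Splicing events with a value in every library were tested with limma, requiring an adjusted p under 0.05 and a PSI difference of at least 0.1. Paired splicing rows need not sum to 1.

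Named genes were, in each comparison, up to 8 members of smallest p among those past the test in the same direction on both scales or, where fewer than 4 were, the 4 of smallest p on deposited TPM. Mcm2 to Mcm7, Pcna, Rrm2, Ccne1, Ccne2 and E2f8 were added where they bore on a comparison, with up to 6 called genes of the rest of the pathway and the 3 splicing differences of largest size. Other members given with values, such as Hells and Rrm1 in knockout LT-HSC, were chosen after their values were seen. The members and lists were chosen with earlier results of these data known. LT-HSC and MPP of batch 1 with the same number share a code in the labels, which do not say what it stands for. On deposited TPM their deviations from group means correlated at 0.07, 0.10 and 0.11 in controls and 0.54, 0.15 and 0.26 in knockouts. Scripts (Python 3.11.15, pandas 2.3.3, matplotlib 3.10.9) were tested on simulated data. Alternatives were other scalings, pseudocounts and filters, a replicate block and each library left out.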

Additional observations from a re-analysis of the deposited data

How the results depend on the processing

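The scale set most counts. Between knockout and floxed LT-HSC, 5 members were higher on deposited TPM, 0 after rescaling, 0 after quantile normalization, 0 without the identifier of highest TPM, 3 with no filter on low values and 0 to 15 without 1 library. Lower members numbered 0, then 2 after rescaling, 1 after quantile normalization and 0 to 1 without 1 library. The 2 rescaled calls became 0 with a replicate block and 0 to 10 without 1 library. In floxed controls, the 22 members higher in MPP became 14 after rescaling, 12 after quantile normalization and 8 to 31 without 1 library, and lower members went from 0 to 1 after rescaling, to 1 without the top identifier and to 0 to 1 without 1 library. The rescaled 14 ranged over 4 to 23 and the rescaled 1 lower over 0 to 1 without 1 library. In knockouts the 12 became 33 after rescaling, 31 after quantile normalization, 26 without the top identifier, 21 with the replicate block and 1 to 13 without 1 library, and the rescaled 33 ranged over 21 to 34. Counts of 0 became 0 to 9 (rescaled 0 to 2) for the Myc allele against Cre controls, 0 to 4 for the batch interaction, and for splicing 0 to 2 (knockout MPP), 0 to 1 (floxed cell types), 0 to 3 (knockout cell types) and 0 to 1 (Myc allele against Cre). Rescaled fits without 1 library or with the replicate block were chosen after seeing the data. With the replicate block the floxed counts were 26 (22.7% of all genes higher) and rescaled 19 (13.5%), and the block changed no other count by over 1.5 times. Shares of all genes were not computed for quantile normalization, the top identifier, the filter or the block between genotypes. Those counts cannot be set against all genes. Knockouts and controls share only a number: same-numbered LT-HSC deviations correlated at -0.07 to 0.30 on deposited TPM. Of the log2 differences of named members under alternatives, 597 kept the side of the threshold, 151 lost the call and 71 gained it. A change of sign was counted only where either fit passed, and 0 were found. The 597 can hold changes of sign between fits that both did not pass. The causes were not tested. Read depth is unknown, so counting error cannot be given for low genes such as Exo1 and Ccne1.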
